A study of Arabidopsis thaliana with 12 samples.

Results

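Roots were set against shoots of wild-type Arabidopsis thaliana seedlings to describe which transcripts each organ carried. The comparison used 6 of the 12 Affymetrix Arabidopsis Gene 1.0 ST arrays of the study, namely the 3 arrays of roots and the 3 of shoots labelled Wassilewskija-4, an accession used as the wild type. The other 6 arrays, 3 of roots and 3 of shoots labelled aladin, a mutant line named after the nuclear pore gene ALADIN, entered the estimate of the spread and a closing comparison of the genotypes. All seedlings were stratified for 3 days and grown for 10 days on vertical agar plates (1% agar, 1% sucrose, diluted Murashige and Skoog salts) at 20 °C with 16 h of light, and the organs were separated and frozen at once. The labels call the 3 arrays of a group biological replicates. They do not say how many seedlings were pooled, where the cut between root and shoot was made, or whether a root and a shoot array came from the same plants, so p values measure the spread between these arrays only.

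Signals were on the log2 scale of RMA, a method that summarises the probes of a probe set, so that 1 unit is a 2-fold difference. Of 38408 probe sets, 17481 had a gene name in the platform annotation, and these were tested. Differences are root minus shoot, a positive value meaning higher in root, each with its standard error (SE) from limma, which fits a linear model to every probe set with a shared estimate of the spread, and p values are adjusted over all 17481. A gene is said to pass where the adjusted p was under 0.05. Pearson's r over probe sets was 0.991 to 0.993 between root arrays, 0.983 to 0.984 between shoot arrays and 0.876 to 0.880 between the organs. The median SD over probe sets was 0.104 in root and 0.152 in shoot. Levels are compared only within a probe set, since probes differ in how strongly they bind, and probes may also take signal from close relatives of a gene, which was not tested.

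A seedling divides its work between its organs. The shoot builds leaves whose chloroplasts fix carbon, using proteins encoded partly in the nucleus and partly in the plastid genome, and it makes stomata, cuticle and a meristem that forms leaves. The root takes up water and minerals through hairs, seals its vascular core with the endodermis, branches through lateral roots, feeds on sugar from the shoot, and in the mustard order stores beta-glucosidases in bodies of the endoplasmic reticulum (ER bodies) that serve in defence.

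The organs differed widely. Of the 17481 probe sets, 10279 passed (58.8%), 5578 of them higher in root (31.9%) and 4701 higher in shoot (26.9%). A difference of at least 2-fold was reached by 1942 in root (11.1%) and by 1602 in shoot (9.16%), while 6735 passed with less than 2-fold and 7202 did not pass. The larger the difference, the more the balance lay with the shoot: 120 probe sets were at least 16-fold higher in root and 160 in shoot, and 7 and 30 were at least 64-fold higher in root and in shoot. The median difference over all probe sets was -0.03, and the median size of a difference, whatever its direction, was 0.41. The 3 root values and the 3 shoot values did not overlap in 64.3% of all probe sets. In bulk tissue, fewer cells of a type and less RNA per cell cannot be told apart, here and in every result that follows.

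The balance of the calls depended on the scaling. With each array centred on 8 housekeeping genes, 4378 passed higher in root and 6789 higher in shoot, so that 39.2% of calls were higher in root, against 54.3% on the deposited scale. The median difference over all probe sets was then -0.19, and -0.11 with arrays centred on their medians. The balance of differences of at least 2-fold also moved. With arrays centred on housekeeping genes 1591 were higher in root and 1893 in shoot. Under cyclic loess these counts were 1655 and 1768, and with arrays centred on their medians 1760 and 1733. No call of at least 2-fold changed direction under either scaling or under cyclic loess. Of the calls under 2-fold, 216 changed direction under cyclic loess. Dim probe sets also leaned to one side: 3857 had a mean under 4.03, the 25th percentile of all values, in both organs, and of these 113 passed higher in root and 878 higher in shoot, with a median difference of -0.19. A signal under this level was not shown to lie above background, so no fold is given for a gene whose mean was under it in either organ.

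**Figure D1:**
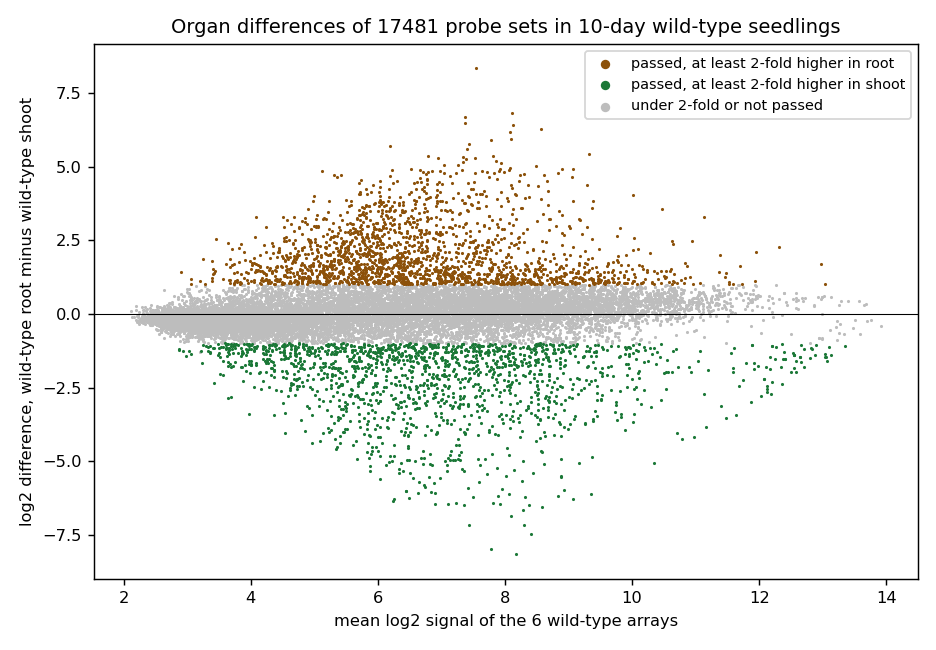
Each point is a probe set, placed by its mean log2 signal over the 6 wild-type arrays (horizontal) and its log2 difference, root minus shoot (vertical). Brown points passed at least 2-fold higher in root (1942), green points at least 2-fold higher in shoot (1602), and the green cloud reaches to -8.17 while the brown one reaches to 8.34.

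Marker genes were checked first, to see that the arrays carried the organs named in their labels. All 7 measured root markers passed higher in root, each by at least 2-fold, where 11.1% of all probe sets did so, with a median difference of 2.1, and 14 of the 15 shoot markers passed higher in shoot, each by at least 2-fold, where 9.16% of all did so, with a median of -3.87. Wherever the 3 values of each organ are printed for a gene that passed, here and in what follows, the organs did not overlap. PYK10, the main beta-glucosidase of ER bodies, had signals of 13.82, 13.82 and 13.79 in roots, against 12.09, 12.21 and 12.06 in shoots, a difference of 1.69 (SE 0.08, adjusted p = 1.59e-09). EXPA7 and EXPA18 code for expansins, which loosen the wall of the growing root hair. EXPA7 read 7.75, 7.38 and 7.58 in roots and 5.99, 5.66 and 5.73 in shoots, and EXPA18 read 7.76, 6.76 and 7.65 in roots and 4.59, 4.1 and 4.83 in shoots. Neither gene overlapped between the organs, and the differences were 1.78 (SE 0.11, adjusted p = 3.38e-08) and 2.88 (SE 0.25, adjusted p = 6.97e-07). XTH26, a xyloglucan-modifying enzyme of root hairs, had the smallest difference of the root markers, 1.09 (SE 0.10, adjusted p = 1.88e-06).

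Among the shoot markers, RCA, which codes for the activase that keeps Rubisco working, had signals of 8.73, 8.66 and 8.62 in roots and 12.68, 12.77 and 12.74 in shoots. The shoot arrays lay 16.6-fold above the root arrays (difference -4.06, SE 0.10, adjusted p = 1.89e-11). The root signals of RCA were well above the dim level of 4.03, which is a percentile of all values and not a limit of detection. Whether they came from RCA transcript in roots was not tested. PORB, a light-dependent enzyme of chlorophyll synthesis, averaged 5.75 ± 0.02 in roots and 11.13 ± 0.07 in shoots (SD, n = 3 each), and differed by -5.38 (SE 0.27, adjusted p = 4.81e-09). CLV3, the peptide that limits stem cells in the shoot meristem, was the marker that did not pass, at 2.78, 2.56 and 2.74 in roots and 2.84, 2.76 and 2.98 in shoots (adjusted p = 0.362). All 6 of its values lay under the dim level.

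**Figure D2:**
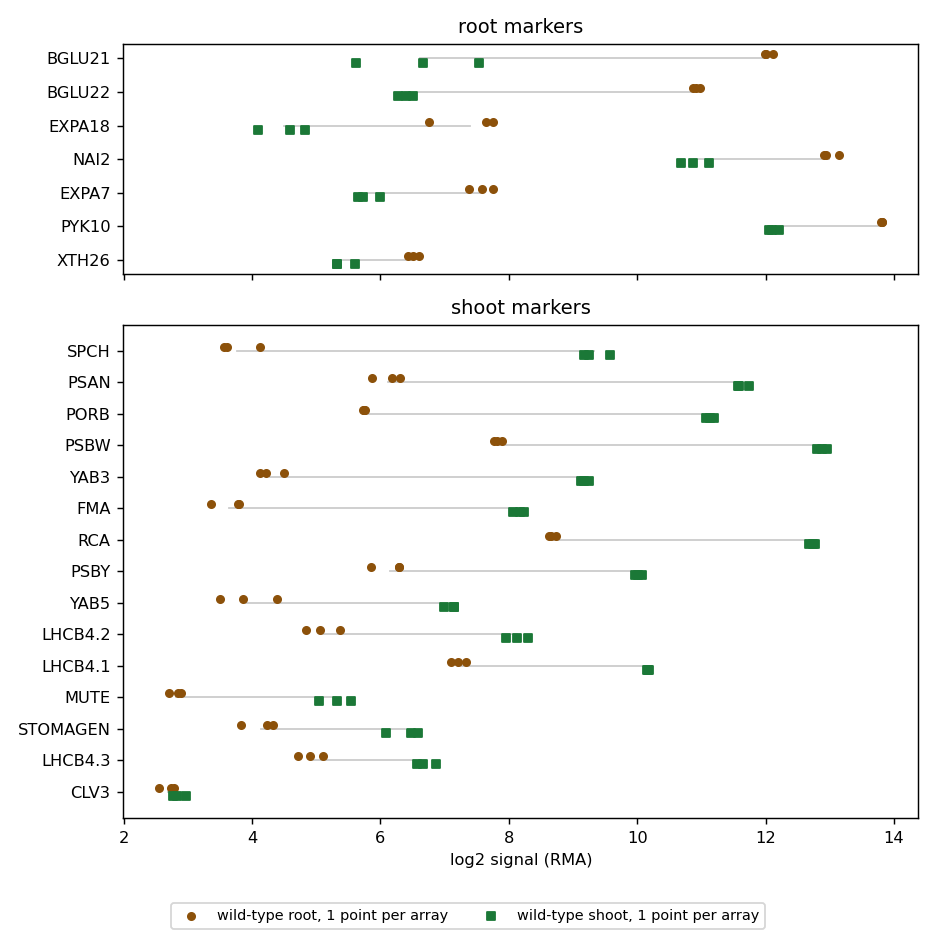
Log2 signal of the 7 root markers (above) and 15 shoot markers (below), 1 point per array, brown circles for roots and green squares for shoots, joined at the means by a grey line. The organs do not overlap in any marker except CLV3, whose 6 values all lie under the dim level of 4.03.

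The 15 largest differences toward the shoot, among probe sets of exactly 1 gene whose organs did not overlap, were all of at least 6.41 units in size, and 3 of them carry a gene symbol. AT5G42530, a gene with no name in the annotation used, had signals of 4.62, 3.24 and 4.39 in roots, against 12.34, 12.21 and 12.20 in shoots. This was the largest shoot difference of all, -8.17 (SE 0.43, 288-fold, adjusted p = 6.82e-09). The neighbouring genes AT3G16660 and AT3G16670, also unnamed, differed by -7.47 and -7.99. NdhL, a nuclear-encoded subunit of the chloroplast NADH dehydrogenase-like complex that cycles electrons around photosystem I, read 4.58, 4.64 and 4.76 in roots and 11.38, 11.57 and 11.64 in shoots, a difference of -6.87 (SE 0.13, adjusted p = 3.98e-12). COR15A, a chloroplast protein known from cold acclimation, read 5.28, 5.37 and 5.27 in roots and 11.82, 11.83 and 11.92 in shoots, a difference of -6.55 (SE 0.24, adjusted p = 3.23e-10). ALDH11A3, the non-phosphorylating glyceraldehyde-3-phosphate dehydrogenase, averaged 4.59 ± 0.11 in roots and 11.02 ± 0.05 in shoots (SD, n = 3 each) and differed by -6.43 (SE 0.14). The other unnamed genes were AT4G22485 (-7.17), AT4G17245 (-7.17), AT2G42220 (-6.67), AT3G48420 (-6.49), AT5G16030 (-6.48), AT4G22490 (-6.45), AT1G70820 (-6.45), AT5G48490 (-6.44) and AT2G25510 (-6.41). In root, 5 of the 15 had means under the dim level, and the root means lay between 3.67 and 5.31.

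Nuclear genes of the photosynthetic machinery were higher in shoot almost without exception. Of 55 measured genes on the list of nuclear-encoded chloroplast proteins, which also holds the peroxisomal photorespiratory enzyme HPR, 53 passed higher in shoot, 48 of them by at least 2-fold and 19 by at least 16-fold. The median difference was -3.07, beside -0.03 over all probe sets. PSAE-1, a photosystem I subunit that docks ferredoxin, had signals of 6.20, 6.41 and 6.31 in roots and 12.36, 12.44 and 12.43 in shoots, a difference of -6.10 (SE 0.09, 68.7-fold, adjusted p = 2.08e-12). PSAN, a subunit on the plastocyanin side of photosystem I, differed by -5.51 (SE 0.14, adjusted p = 1.84e-11). PSBW and PSBY, small proteins of photosystem II, differed by -5.06 (SE 0.09) and -3.87 (SE 0.12). LHB1B2, a chlorophyll-binding protein of the main light-harvesting antenna, read 8.89, 8.78 and 8.98 in roots and 13.04, 13.05 and 13.10 in shoots, a difference of -4.18 (SE 0.12, adjusted p = 4.66e-11). The genes for the minor antenna protein CP29 showed smaller differences, -2.96 (SE 0.11) for LHCB4.1, -3.04 (SE 0.17) for LHCB4.2 and -1.79 (SE 0.12) for LHCB4.3.

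The carbon-fixing enzymes were also higher in shoot. All 3 measured genes of the Calvin cycle passed higher in shoot. PRK, phosphoribulokinase, which makes the acceptor of carbon dioxide, read 4.71, 4.09 and 4.37 in roots and 10.35, 10.76 and 10.67 in shoots (-6.21, SE 0.18, 73.9-fold, adjusted p = 4.64e-11). SBPASE, sedoheptulose-bisphosphatase, which regenerates that acceptor, averaged 5.94 ± 0.16 in roots and 11.92 ± 0.03 in shoots (SD, n = 3 each), a difference of -5.99 (SE 0.13, adjusted p = 6.06e-12). HPR, hydroxypyruvate reductase, which returns photorespiratory carbon to the cycle, differed by -6.29 (SE 0.12, adjusted p = 3.89e-12).

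Pigment synthesis followed the same order with 2 exceptions. Of 10 genes, 8 passed higher in shoot, each by at least 2-fold, 1 passed higher in root and 1 did not pass. CHLM, which methylates the magnesium porphyrin on the way to chlorophyll, averaged 7.6 ± 0.16 in roots and 11.16 ± 0.16 in shoots (SD, n = 3 each; -3.56, SE 0.12, adjusted p = 1.71e-10). HEME1 and HEME2, uroporphyrinogen decarboxylases at the step shared by heme and chlorophyll, differed by -2.85 (SE 0.10) and -3.16 (SE 0.09). LIL3:2, a protein of the thylakoid that holds enzymes of chlorophyll synthesis, differed by -3.1 (SE 0.12). HEMA2, a glutamyl-tRNA reductase at the start of tetrapyrrole synthesis, was the gene higher in root, at 6.07, 5.95 and 6.35 in roots and 5.44, 5.81 and 5.82 in shoots, a difference of 0.43 (SE 0.16, adjusted p = 0.0303). It did not pass without root replicate 1 (adjusted p = 0.0519), root replicate 3 (0.124) or shoot replicate 1 (0.123), nor with arrays centred on their medians (0.0674) or on housekeeping genes (0.142) or under cyclic loess (0.122). Its paralog HEMA3 did not pass, and both of its means lay under the dim level.

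The 2 members of the nuclear chloroplast list that went the other way, of which TAAC was picked out after its values were seen, are not photosystem subunits. SAPX, an ascorbate peroxidase of the plastid stroma and the mitochondria, read 9.56, 9.72 and 9.63 in roots and 8.12, 8.38 and 8.31 in shoots, a difference of 1.37 (SE 0.13, 2.58-fold, adjusted p = 1.37e-06). TAAC, a carrier of adenine nucleotides, read 10.25, 10.31 and 10.39 in roots and 9.35, 9.36 and 9.3 in shoots (0.98, SE 0.08, adjusted p = 6.12e-07). The organs did not overlap for either gene.

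Transcripts of the plastid genome were also higher in shoot, by less on the measured scale. Of 64 plastid-encoded genes, 62 passed higher in shoot, rpl2 passed higher in root and accD did not pass, with a median difference of -1.51, and none reached 16-fold. All 10 genes of the NDH complex passed at least 2-fold higher in shoot (median -2.38). The NDH gene ndhF read 9.58, 9.82 and 9.73 in roots and 13.34, 13.12 and 13.27 in shoots, a difference of -3.53 (SE 0.09, adjusted p = 1.43e-11), and ndhK, ndhC and ndhG differed by -2.97, -2.64 and -2.45. Of 35 genes for photosystems, the cytochrome complex, the ATP synthase and others, 34 passed higher in shoot, 24 by at least 2-fold (median -1.38). petN, a small subunit of the cytochrome b6f complex, differed by -3.44 (SE 0.08), psbM by -3.38 and psbZ, both of photosystem II, by -2.78, and ccsA, which attaches heme to cytochromes, by -2.72. Of 19 genes for the plastid ribosome, RNA polymerase and splicing, 18 passed higher in shoot, 13 by at least 2-fold (median -1.32), with -2.55 for rps16, -1.96 for the polymerase subunit rpoB and -1.53 for rps2.

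Many plastid genes lay near the top of the scale. In root 9 of the 64 had means of at least 13, and in shoot 51 did, where the highest value on any array was 14.24. The median difference was -0.25 for the 9 with root means of at least 13, and -2.55 for the 17 with root means under 11. A gene already near the top of the scale in root had little room for a higher shoot signal. The smaller plastid differences and the absence of any of 16-fold therefore cannot be set against those of the nuclear genes. Whether signals near the top of the scale narrowed these differences was not tested. accD, a subunit of the carboxylase that starts fatty acid synthesis, also picked out after its values were seen, differed by -0.02 (SE 0.08, adjusted p = 0.863) and passed higher in shoot under cyclic loess (adjusted p = 0.000197). rpl2, a ribosomal protein gene, read 13.81, 13.85 and 13.88 in roots and 13.48, 13.50 and 13.57 in shoots, a difference of 0.33 (SE 0.07, adjusted p = 0.00195), which turned to -0.15 under cyclic loess and then did not pass, nor did it with arrays centred on housekeeping genes (adjusted p = 0.064).

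Nuclear factors that edit or splice organellar transcripts were divided. Of 16 measured, 11 passed higher in shoot, 5 by at least 2-fold, 3 passed higher in root and 2 did not pass (median -0.79). CRR21, which edits a plastid NDH transcript, had the largest shoot difference, -2.47 (SE 0.14), followed among the genes named by OTP86, a pentatricopeptide editing factor (-1.27, SE 0.13). CFM3A and CFM3B, splicing proteins of group II introns, differed by -1.23 and -0.95. LOJ, a pentatricopeptide protein, passed higher in root by 0.92 (SE 0.14, adjusted p = 9.18e-05).

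**Figure D3:**
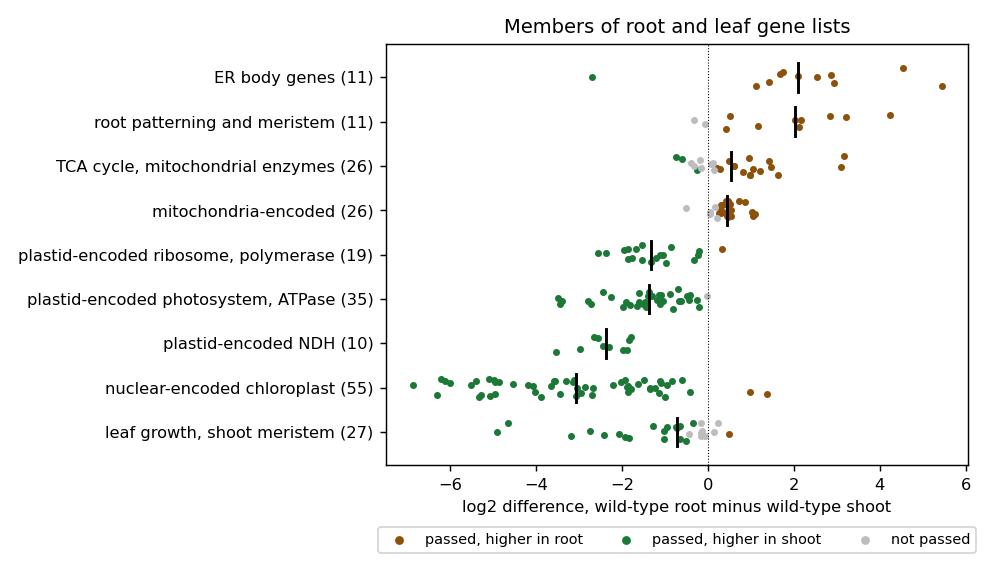
Log2 difference, root minus shoot, of each member of 9 gene lists (1 point per probe set, number of probe sets in brackets), brown where it passed higher in root, green where it passed higher in shoot and grey where it did not pass. The black bar is the list median, which runs from 2.1 for ER body genes to -3.07 for nuclear-encoded chloroplast proteins, and the plastid-encoded lists lie between -1.32 and -2.38.

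Stomata form in the epidermis of leaves, and all 5 measured genes of the stomatal lineage passed at least 2-fold higher in shoot (median -2.48). A set of related helix-loop-helix factors act in turn in this lineage. SPCH, which starts it, read 3.57, 3.62 and 4.12 in roots and 9.18, 9.25 and 9.58 in shoots, a difference of -5.56 (SE 0.18, adjusted p = 1.34e-10). MUTE, which ends the stem-like divisions, read 2.71, 2.90 and 2.85 in roots and 5.54, 5.04 and 5.33 in shoots (-2.48, SE 0.22, adjusted p = 8.70e-07), and FMA, which completes the guard cells, read 3.79, 3.36 and 3.79 in roots and 8.18, 8.06 and 8.24 in shoots (-4.52, SE 0.15, adjusted p = 1.43e-10). The root means of SPCH, MUTE and FMA all lay under the dim level. STOMAGEN, a secreted peptide that promotes stomata, differed by -2.25 (SE 0.19), and the blue-light kinase gene AT4G14480 (BLUS1), which opens them, by -2.33 (SE 0.12). CHX20, a cation exchanger of guard cells, differed by -2.1 (SE 0.13, adjusted p = 2.40e-08).

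Genes of the leaf surface and of leaf shape were mostly higher in shoot. All 4 measured genes of wax and cutin passed higher in shoot, 2 of them by at least 2-fold. The other 2, SHN3 and WSD1, were dim in both organs, and under cyclic loess 3 of the 4 passed. The wax gene AT4G13840 (CER26) differed by -3.18 (SE 0.28), and SHN2 and SHN3, factors that activate cuticle genes, by -1.43 and -0.62. Of 27 genes of the shoot meristem, organ boundaries and leaf growth, 18 passed higher in shoot, 11 by at least 2-fold, 1 passed higher in root and 8 did not pass (median -0.72). YAB3, a YABBY factor that marks the lower side of leaves, read 4.5, 4.22 and 4.12 in roots and 9.16, 9.26 and 9.13 in shoots, a difference of -4.90 (SE 0.15, 29.9-fold, adjusted p = 5.34e-11), and its relatives YAB2 and YAB5 differed by -4.65 (SE 0.13) and -3.18 (SE 0.21). JAG, which drives growth of lateral organs, differed by -2.42 (SE 0.11), and TCP15, a factor of leaf growth, by -2.08 (SE 0.11). LAS, a factor of axillary meristems, was the member higher in root, at 4.80, 4.21 and 4.72 in roots and 4.11, 3.92 and 4.2 in shoots (0.50, SE 0.15, adjusted p = 0.0142). It did not pass without root replicate 1 (adjusted p = 0.0654), root replicate 3 (0.0562) or shoot replicate 2 (0.0557), nor with arrays centred on housekeeping genes (0.0896).

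Few light-linked genes outside the chloroplast carried a symbol and were measured. PIF7, a phytochrome-interacting factor that acts in shade, read 4.45, 4.25 and 4.33 in roots and 8.54, 8.63 and 8.23 in shoots (-4.13, SE 0.11, 17.4-fold, adjusted p = 3.53e-11). GI, a clock and flowering gene, was higher in root by 0.94 (SE 0.16, adjusted p = 2.73e-04), and HYH, a relative of the light-response factor HY5, did not pass (-0.27, adjusted p = 0.126), though it did with arrays centred on housekeeping genes (adjusted p = 0.0143). DFR, which makes the colourless precursor of anthocyanins, read 4.69, 4.80 and 4.95 in roots and 9.74, 9.84 and 8.87 in shoots, a difference of -4.67 (SE 0.45, 25.4-fold, adjusted p = 2.24e-06). Of 7 flavonoid genes, 3 passed higher in shoot, UGT78D2 passed higher in root (0.46) and 3 did not pass. Of all probe sets 26.9% passed higher in shoot and 31.9% higher in root.

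Turning to the root, the 15 largest differences in that direction were all of at least 5.36 units, and 3 of these genes carry a symbol. AT1G52060, unnamed in the annotation used, had signals of 11.70, 11.83 and 11.61 in roots and 3.57, 3.29 and 3.24 in shoots. This was the largest difference in either direction, 8.34 (SE 0.12, adjusted p = 1.33e-12), with all 3 shoot values under the dim level, and the gene beside it, AT1G52070, differed by 5.71 (SE 0.19). SBT4.12, a subtilisin-like protease, read 11.43, 11.21 and 11.36 in roots and 5.23, 5.16 and 4.39 in shoots (6.41, SE 0.18, adjusted p = 4.30e-11). PDF2.5, a small cysteine-rich defensin-like protein, read 10.74, 10.72 and 10.74 in roots and 4.53, 5.05 and 4.91 in shoots (5.91, SE 0.28, adjusted p = 2.45e-09). The other unnamed genes were AT3G28550 (6.84), AT3G54580 (6.68), AT5G54370 (6.50), AT1G60750 (6.29), AT3G01260 (6.19), AT3G01190 (5.93), AT4G00910 (5.79), AT4G08400 (5.6), AT5G13900 (5.37) and AT3G12900 (5.36).

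The third symbol among them, BGLU21, belongs to the ER body system, which was higher in root as a group. Of 11 measured genes, 10 passed at least 2-fold higher in root and 1 at least 2-fold higher in shoot (median 2.1). BGLU21, a beta-glucosidase stored in ER bodies, read 12.00, 12.12 and 12.01 in roots and 7.54, 6.67 and 5.62 in shoots, a difference of 5.43 (SE 0.37, 43.2-fold, adjusted p = 8.26e-08). The 3 shoot values were spread over nearly 2 units, with an SD of 0.96, beside 0.07 in root. Its close relative BGLU22 read 10.92, 10.86 and 10.98 in roots and 6.27, 6.50 and 6.39 in shoots (4.53, SE 0.18, adjusted p = 5.99e-10). NAI2, the protein that shapes ER bodies, read 12.94, 12.91 and 13.14 in roots and 10.68, 11.12 and 10.87 in shoots (2.1, SE 0.12, adjusted p = 1.41e-08). The jacalin-related lectins of this system were not of a kind: JAL31 and JAL34 were higher in root, by 2.86 (SE 0.11) and 2.93 (SE 0.09), whereas JAL23 read 4.01, 4.18 and 4.49 in roots and 6.76, 6.98 and 7.06 in shoots, a difference of -2.71 (SE 0.28, adjusted p = 4.05e-06).

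Genes that pattern the root and its branches were mostly higher in root. Of 11 genes of root patterning, cap and meristem, 9 passed higher in root, 7 by at least 2-fold, none passed higher in shoot and 2, CLE40 and OPS, did not pass (median 2.01). AGL21, a MADS-box factor of lateral root growth, read 8.66, 8.65 and 8.82 in roots and 4.91, 4.12 and 4.41 in shoots, a difference of 4.23 (SE 0.17, 18.8-fold, adjusted p = 7.41e-10). AGL42, another MADS-box gene, differed by 3.21 (SE 0.12). LBD16 and LBD29, which act below auxin when lateral roots are founded, read 7.38, 7.57 and 7.52 and 7.6, 7.34 and 7.41 in roots, against 5.32, 5.41 and 5.40 and 4.08, 4.79 and 4.94 in shoots. Their differences were 2.11 (SE 0.11, adjusted p = 9.58e-09) and 2.85 (SE 0.20, adjusted p = 1.29e-07). UPB1, which sets the point where root cells stop dividing through reactive oxygen, differed by 2.18 (SE 0.12). On a wider list of 21 genes of root growth and lateral roots, which shares 10 genes with the first, 15 passed higher in root, 2 passed higher in shoot and 4 did not pass. The 2 higher in shoot were PLS, which codes for the POLARIS peptide (-0.99, SE 0.18), and TRY, a repressor of trichomes (-0.35, SE 0.11). TRY did not pass without root replicate 2 (adjusted p = 0.074) or shoot replicate 2 (0.0565).

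The endodermis and the vascular core were represented by few genes. All 3 measured endodermis and suberin genes passed at least 2-fold higher in root. GSO1, a receptor kinase needed for a sealed Casparian strip, read 8.60, 8.55 and 8.69 in roots and 6.31, 6.80 and 6.27 in shoots (2.15, SE 0.14, adjusted p = 4.50e-08), JKD, a zinc finger factor of the ground tissue, differed by 1.41 (SE 0.10), and FACT, which makes caffeate esters of suberin-associated waxes, by 2.44 (SE 0.12). Of 10 genes of xylem and secondary wall, 8 passed higher in root, 4 by at least 2-fold, and 2, the peptide genes CLE41 and CLE44, passed higher in shoot (median 0.83). The peroxidase gene AT5G66390 (PRX72), linked to lignin, read 10.28, 10.12 and 10.20 in roots and 6.28, 6.16 and 6.04 in shoots, a difference of 4.05 (SE 0.18, 16.5-fold, adjusted p = 1.34e-09). BGLU46, which releases lignin precursors from their glucosides, differed by 3.19 (SE 0.13), and the xylan genes IRX15-L and GUT2 by 1.43 and 1.05. CLE44, whose peptide holds the vascular cambium undifferentiated, differed by -0.57 (SE 0.13, adjusted p = 0.00277).

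Enzymes that remodel the cell wall included members higher in either organ. Of 24 expansin probe sets, 10 passed higher in root, 6 higher in shoot and 8 did not pass, where 31.9% and 26.9% of all probe sets passed in these directions, and the list median of 0.08 turned to -0.08 when arrays were centred on housekeeping genes. EXPB1, a beta-expansin, read 9.82, 9.77 and 9.77 in roots and 6.56, 6.74 and 6.39 in shoots (3.22, SE 0.15, adjusted p = 1.83e-09), and EXPB3 and EXPA15 were higher in root by 2.19 and 1.73. EXPA8 stood opposite, at 7.32, 7.44 and 7.46 in roots and 9.66, 10.26 and 10.20 in shoots (-2.64, SE 0.14, adjusted p = 7.19e-09). The xyloglucan endotransglucosylases divided evenly, with 5 of 10 higher in root and 5 higher in shoot, among them XTH21 (2.14, SE 0.11) on the root side and XTH33 (-1.24, SE 0.12) and XTH32 (-1.08, SE 0.10) on the shoot side. In glycosyl hydrolase family 9, whose members cut cellulose, 8 of 19 passed higher in root and 7 higher in shoot, and 7 and 4 did under cyclic loess. The members that carry a cellulose-binding part stood on the root side, with 3.59 (SE 0.21) for GH9C1, 2.78 (SE 0.18) for GH9C3 and 1.62 (SE 0.08) for GH9C2.

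Proteins that decorate the wall or act in it also had members in both directions. Over all probe sets 31.9% passed higher in root and 26.9% higher in shoot. Of 24 trichome birefringence-like genes, whose products acetylate wall polysaccharides, 12 passed higher in root and 5 higher in shoot, from TBL39 at 2.88 (SE 0.16) to TBL45 at -2.59 (SE 0.09). Of 7 class III peroxidases, 4 passed higher in root and 2 higher in shoot. The peroxidase gene AT5G64120 (PRX71) read 11.29, 11.32 and 11.36 in roots and 8.70, 8.92 and 8.61 in shoots (2.58, SE 0.18), while PRXCA read 3.64, 3.25 and 4.09 in roots and 7.95, 8.06 and 8.07 in shoots (-4.37, SE 0.31, adjusted p = 1.27e-07), where the root mean lay under the dim level. Of 33 probe sets of serine carboxypeptidase-like proteins, 9 passed higher in root, 6 higher in shoot and 18 did not pass. Both directions lay under the shares of all probe sets. With arrays centred on housekeeping genes, 9 passed higher in root and 14 higher in shoot. On the root side stood scpl28 at 3.95 (SE 0.15) and SCPL15 at 3.06 (SE 0.15), and on the shoot side scpl42 at -1.76 (SE 0.13). CSLD2, a cellulose synthase-like protein of root hairs, was higher in root by 0.92 (SE 0.09), and CSLB03, of the same superfamily, was higher in shoot (-1.71, SE 0.20).

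Conjugating enzymes held members far higher in root and others far higher in shoot. The shares of all probe sets were 31.9% higher in root and 26.9% higher in shoot. Of 15 glutathione transferases, which join glutathione to reactive or foreign molecules, 10 passed higher in root, 4 passed higher in shoot and 1 did not pass (median 0.72). GSTU25 read 7.62, 7.71 and 7.69 in roots and 3.11, 2.66 and 3.06 in shoots, a difference of 4.73 (SE 0.26, adjusted p = 1.19e-08), with all shoot values under the dim level. GSTU22 and GSTU26 differed by 4.32 (SE 0.14) and 3.82 (SE 0.12). GSTU18 and GSTL3 were higher in shoot, with differences of -2.62 (SE 0.16) and -2.09 (SE 0.08). Of 60 probe sets of UDP-glycosyltransferases, which attach sugars to small molecules, 25 passed higher in root and 18 higher in shoot, and the median of 0.03 turned to -0.13 when arrays were centred on housekeeping genes. UGT71C1 and UGT73D1 were higher in root by 2.51 (SE 0.11) and 2.45 (SE 0.13), and UGT88A1 read 4.13, 4.21 and 4.59 in roots and 7.45, 7.31 and 7.36 in shoots (-3.07, SE 0.15, adjusted p = 2.96e-09). Of the 25 cytochrome P450s, 4 passed higher in root and 11 higher in shoot, but 9 were dim in both organs and 4 and 8 passed under cyclic loess. They ranged from 1.64 for CYP71B37 to -3.61 (SE 0.21) for CYP71B35. Methionine sulfoxide reductases, which repair oxidised protein, leaned to the root: 6 of 7 passed higher in root, with MSRB9 at 10.56, 10.55 and 10.61 in roots and 7.27, 7.36 and 7.03 in shoots (3.35, SE 0.16, adjusted p = 3.82e-09) and MSRB8 at 3.04 (SE 0.24), and MSRB6 passed higher in shoot (-1.15, SE 0.19).

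**Figure D4:**
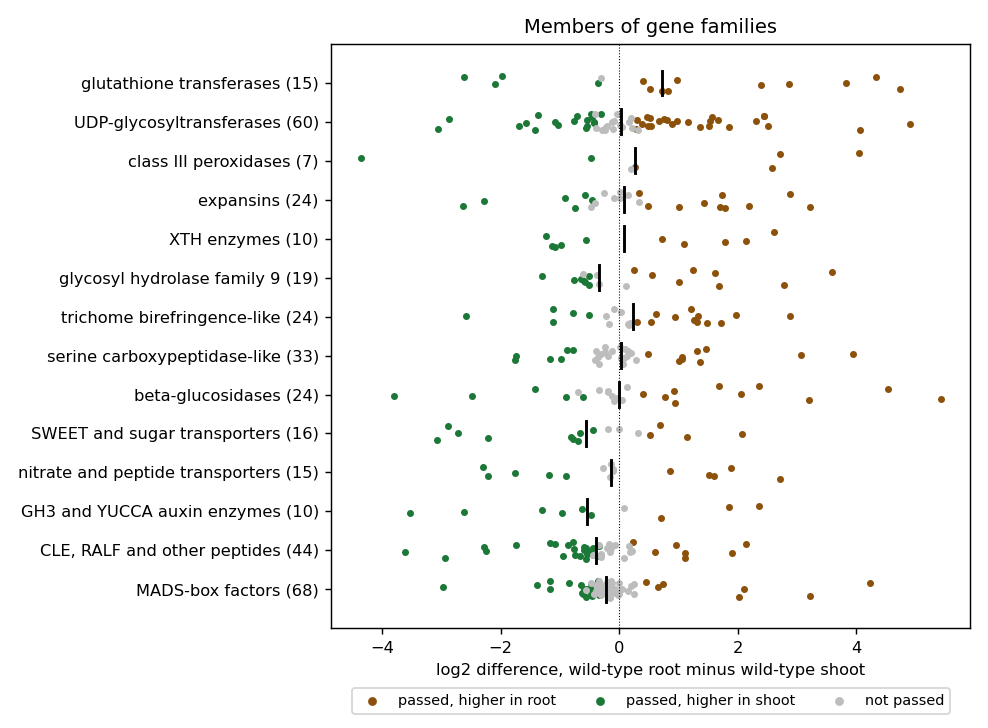
Log2 difference, root minus shoot, of each member of 14 gene families (1 point per probe set, number of probe sets in brackets), coloured brown where it passed higher in root, green where it passed higher in shoot and grey otherwise, with the family median as a black bar. Every family has members that passed in both directions, and the medians lie between 0.72 for glutathione transferases and -0.55 for sugar transporters and auxin enzymes.

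Sugar handling differed by step. Of 16 SWEET and related sugar transporters, 4 passed higher in root and 9 higher in shoot (median -0.55), beside 31.9% and 26.9% of all probe sets. SWEET11, which exports sucrose toward the phloem of leaves, read 8.09, 8.31 and 8.22 in roots and 11.14, 11.31 and 11.41 in shoots, a difference of -3.08 (SE 0.09, 8.44-fold, adjusted p = 4.14e-11), and SWEET1 and SWEET4 differed by -2.90 (SE 0.12) and -2.22 (SE 0.15). SWEET16, a carrier of the vacuolar membrane, was higher in root, at 8.55, 8.59 and 8.50 in roots and 6.53, 6.66 and 6.23 in shoots (2.07, SE 0.18, adjusted p = 9.94e-07). TMT1, which loads sugar into the vacuole, read 12.40, 12.36 and 12.44 in roots and 10.41, 10.29 and 10.44 in shoots (2.02, SE 0.09, adjusted p = 9.95e-10). ATSPS4F, a sucrose-phosphate synthase, differed by -3.69 (SE 0.12), while cwINV6, of the cell wall invertase family, differed by 3.60 (SE 0.14, 12.2-fold).

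Of 15 probe sets for transporters of nitrate and small peptides, 5 passed higher in root, 5 passed higher in shoot and 5 did not pass, near the 31.9% and 26.9% of all probe sets. NAXT1, a nitrate exporter, read 10.15, 10.30 and 10.32 in roots and 8.46, 8.31 and 8.34 in shoots (1.88, SE 0.08, adjusted p = 1.21e-09). The family members AT1G72125 (NPF5.13) and AT1G33440 (NPF4.4) were higher in root by 2.71 and 1.6, and AT2G26690 (NPF6.2) was higher in shoot (-2.22, SE 0.09). GTR2, which moves glucosinolates, was higher in root by 0.86 (SE 0.07). CHX16, a cation exchanger, was the 1 gene of 9 in its family to pass higher in root, at 9.36, 9.32 and 9.52 in roots and 6.30, 6.36 and 6.35 in shoots (3.06, SE 0.08, 8.36-fold), beside 5 higher in shoot. Among 10 glutamate receptor-like channels ATGLR1.2 alone passed higher in root (2.23, SE 0.26), beside 6 higher in shoot.

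Of 6 measured genes of the iron response, 2 passed higher in root, 1 passed higher in shoot and 3 did not pass. The shares over all probe sets were 31.9% higher in root and 26.9% higher in shoot. BHLH101, a factor induced by lack of iron, read 5.47, 5.09 and 4.87 in roots and 6.91, 7.07 and 6.44 in shoots (-1.66, SE 0.27, adjusted p = 1.66e-04). The coumarin enzyme gene AT1G55290 (F6'H2) and the glucosidase gene BGLU42 were higher in root by 0.91 (SE 0.15) and 0.39 (SE 0.09), but BGLU42 did not pass under cyclic loess (adjusted p = 0.244), where the list median also turned below 0.

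Auxin synthesis and auxin conjugation each had a member higher in root and a member higher in shoot. Of 10 measured genes on the list that holds them, 3 passed higher in root, 6 higher in shoot and 1 did not pass. Over all probe sets 31.9% and 26.9% passed in these directions, and 2 of the 10 were dim in both organs. YUC6 and YUC2 code for flavin monooxygenases that make auxin. YUC6 read 7.10, 7.2 and 7.42 in roots and 5.0, 5.14 and 4.49 in shoots (2.36, SE 0.16, adjusted p = 6.41e-08), and YUC2 read 3.89, 3.86 and 3.45 in roots and 6.23, 6.26 and 6.59 in shoots (-2.63, SE 0.22, adjusted p = 5.85e-07). The root mean of YUC2 lay under the dim level. The conjugating enzymes GH3.17 and GH3.9 were opposed in the same way, at 1.85 (SE 0.09) and -3.53 (SE 0.11). IAA29, a repressor of auxin response, read 3.63, 3.77 and 4.15 in roots and 8.54, 8.45 and 8.99 in shoots, a difference of -4.81 (SE 0.44, adjusted p = 1.27e-06), with a root mean under the dim level. The other 7 measured Aux/IAA genes differed by less than 2-fold: IAA18 passed higher in shoot (-0.96), IAA31 and IAA33 passed higher in root (0.49 and 0.45), and 4 did not pass. IAA31 did not pass without root replicate 2 (adjusted p = 0.0519) or shoot replicate 3 (0.0523), nor IAA33 without root replicate 3 (0.0609). With arrays centred on housekeeping genes neither passed (0.0822 for IAA31 and 0.111 for IAA33).

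Other hormone genes differed less. GID1B, a gibberellin receptor, read 8.68, 8.79 and 8.86 in roots and 6.62, 6.56 and 6.68 in shoots (2.16, SE 0.13, adjusted p = 3.55e-08), its relative GID1C differed by 0.52 (SE 0.16) and GID1A did not pass (0.13, adjusted p = 0.179). ARR15, a response regulator that dampens cytokinin signalling, was higher in shoot (-1.33, SE 0.24, adjusted p = 4.61e-04), and RR24, dim in both organs, passed with -0.50. GID1C did not pass without root replicate 2 (adjusted p = 0.0538), under cyclic loess (0.0799) or with arrays centred on housekeeping genes (0.0699), and RR24 did not pass without root replicate 1 (0.0977), root replicate 3 (0.107) or shoot replicate 2 (0.159), or under cyclic loess (0.127). The other 6 measured cytokinin genes did not pass. Of 10 genes on the jasmonate list none passed higher in root and 4 passed higher in shoot. These were the defensin genes PDF1.4 (-1.79), PDF1.2 (-1.19) and PDF1.5 (-0.93) and the methyltransferase gene JMT (-0.71). The root means of all 4 lay under the dim level. Of the 10 genes 4, PDF1.5 among them, were dim in both organs.

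Signal peptides leaned to the shoot, with 7 of 44 higher in root, 23 higher in shoot and 14 not passing (median -0.39). Of all probe sets 31.9% passed higher in root and 26.9% higher in shoot, and 12 of the 44 peptide genes were dim in both organs. RTFL13, of the DEVIL family of small growth regulators, read 2.94, 3.02 and 3.00 in roots and 6.71, 6.18 and 6.89 in shoots (-3.61, SE 0.21, adjusted p = 1.54e-08). CLE14, of the CLE family of signal peptides, read 7.44, 7.64 and 7.81 in roots and 5.65, 5.31 and 5.52 in shoots (2.14, SE 0.11, adjusted p = 5.95e-09), and RALFL32 was higher in root by 1.9 (SE 0.09). Of the 85 defensin-like and thionin genes, 5 passed higher in root and 22 higher in shoot, but 66 of them were dim in both organs, and the counts were 6 and 11 under cyclic loess and 5 and 48 with arrays centred on housekeeping genes. The 5 higher in root included PDF2.1 (2.72, SE 0.15) and LCR68 (1.72, SE 0.09) as well as PDF2.5, and THI2.2, a thionin, stood on the shoot side (-3.38, SE 0.19).

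Transcription factor families were measured in part, and dim members weigh on their counts. Beside them, 31.9% of all probe sets passed higher in root and 26.9% higher in shoot. Of 68 MADS-box probe sets, 7 passed higher in root and 19 higher in shoot, but 44 were dim in both organs, and the counts were 8 and 10 under cyclic loess and 7 and 36 with arrays centred on housekeeping genes. Of the 24 that were not dim, 7 passed higher in root and 7 higher in shoot. AGL24, which promotes flowering, read 4.28, 3.72 and 4.0 in roots and 6.84, 7.28 and 6.79 in shoots (-2.97, SE 0.18, adjusted p = 2.65e-08), opposite to AGL21 and AGL42 above. Of 7 WRKY factors, 4 passed higher in root and 2 higher in shoot. WRKY6, which acts in phosphate starvation and senescence, read 10.43, 10.62 and 10.64 in roots and 7.93, 7.89 and 7.74 in shoots (2.71, SE 0.19, adjusted p = 1.26e-07), WRKY42 differed by 1.75 (SE 0.19), and WRKY22 was higher in shoot (-1.06, SE 0.21). The ERF factor gene tny (TINY) read 9.39, 9.38 and 9.39 in roots and 5.74, 6.0 and 5.62 in shoots (3.60, SE 0.13, 12.1-fold, adjusted p = 2.01e-10). Among 24 bZIP factors, 9 passed higher in root and 6 higher in shoot, again near the shares of all probe sets, and 6 and 7 did under cyclic loess. They ranged from bZIP44 at 1.57 (SE 0.14) to BZIP34 at -2.86 (SE 0.09).

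Mitochondrial genes differed in the direction opposite to plastid genes, and by less. Of 26 genes of the tricarboxylic acid cycle and other mitochondrial enzymes, 16 passed higher in root, 7 by at least 2-fold, 3 passed higher in shoot and 7 did not pass (median 0.55). NDB2, which oxidises NADH on the outer face of the inner membrane, read 10.20, 10.11 and 9.91 in roots and 7.33, 6.85 and 6.58 in shoots, a difference of 3.16 (SE 0.19, 8.91-fold, adjusted p = 2.03e-08). SDH1-1 and SDH1-2 code for the flavin-bearing subunit of succinate dehydrogenase. SDH1-1 differed by 1.47 (SE 0.09) and SDH1-2 by 3.1 (SE 0.14), at 7.98, 8.14 and 7.83 in roots and 5.09, 4.88 and 4.67 in shoots. IDH-V, a subunit of isocitrate dehydrogenase, differed by 1.05 (SE 0.07). Of 26 probe sets for 17 genes of the mitochondrial genome, 21 passed higher in root, 3 of them by at least 2-fold, and none passed higher in shoot (median 0.44). These small differences rested on the scaling: with arrays centred on housekeeping genes 13 passed higher in root and 1 higher in shoot, and under cyclic loess 5 and 3, with a median of 0.02.

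Genes of the basic cell machinery differed mostly by small amounts, in both directions. Over all probe sets 31.9% passed higher in root and 26.9% higher in shoot. Of 8 housekeeping genes, 4 passed higher in root, 1 passed higher in shoot and 3 did not pass, and none reached 2-fold. The medians of the lists for housekeeping, cell cycle, and DNA replication and histones were 0.21, 0.10 and 0.25, and each turned below 0 under at least 1 other scaling. GAPC2, a glycolytic enzyme often used as a standard, differed by 0.56 (SE 0.08) but did not pass under cyclic loess (0.15, adjusted p = 0.124), EIF4A-2 by 0.74 and TUB5 by -0.78. Of 8 cell cycle genes, SIM, which restrains division (1.62, SE 0.14), BUB3.2 (0.88, SE 0.13) and AUR1 (0.23, SE 0.08) passed higher in root, and AUR1 turned to -0.08 under cyclic loess and then did not pass. Nor did AUR1 pass without root replicate 1 (adjusted p = 0.073), root replicate 3 (0.0609) or shoot replicate 1 (0.0884), or with arrays centred on their medians (0.128) or on housekeeping genes (0.468). Of 9 genes of DNA replication and histones, 5 passed higher in root by up to 0.55 and HTB2 passed higher in shoot (-0.27), but did not pass without root replicate 2 or 3, without any 1 of the shoot replicates or without any 1 of the aladin root replicates (adjusted p up to 0.169). TUB1, a beta-tubulin, was higher in root, at 8.54, 8.62 and 8.73 in roots and 6.54, 6.76 and 6.90 in shoots (1.89, SE 0.16, adjusted p = 5.68e-07). Among 27 genes of ubiquitin conjugation, 14 passed higher in root and 2 higher in shoot, led by the ligase genes PUB23 (2.74, SE 0.14) and PUB22 (1.77, SE 0.09). For ubiquitin conjugation the counts were 9 and 4 under cyclic loess and 10 and 5 with arrays centred on housekeeping genes. Of 10 autophagy genes 7 passed higher in root, with ATG8H at 2.41 (SE 0.19), and 1, ATG8F, higher in shoot (-0.35).

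Lists of membrane traffic leaned to the root by small amounts on the deposited scale. Of 16 ESCRT and vacuolar sorting genes 10 passed higher in root and 1 higher in shoot (median 0.41). Of 16 genes of the PRA1 family, which act in membrane traffic, 11 and 2 did (median 0.49). Of 20 genes of the exocyst and vesicle fusion 8 and 2 did (median 0.18). That last lean did not hold under cyclic loess, where 4 and 6 passed (median -0.0085). With arrays centred on housekeeping genes 5 and 4 did. Over all probe sets 31.9% and 26.9% passed in these directions. Of 7 calmodulin-like genes 4 passed higher in root and none higher in shoot (median 0.56), but 2 of the 7 were dim in both organs. Under cyclic loess 3 passed higher in root, and 2 did with arrays centred on housekeeping genes. Of 15 LSM and splicing genes 8 passed higher in root and 1 higher in shoot, but 1 and 3 did under cyclic loess. Across all 80 lists with at least 3 measured genes, 47 had a median above 0, and 33 did with arrays centred on housekeeping genes.

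Some genes with high signals in both organs did not differ detectably. Of 837 probe sets with means in both organs of at least 9.56, the 90th percentile of all values, 224 did not pass and 118 passed with at least 2-fold. Of all 17481 probe sets 7202 did not pass and 3544 passed with at least 2-fold. Both outcomes were thus less frequent among these bright probe sets than over all. The 5 smallest differences were those of AT1G33265, AT3G20720, AT2G20330, AT5G10160 and AT5G11710, all within 0.01, with standard errors of 0.07 to 0.09. Under cyclic loess all 5 passed higher in shoot, with -0.31 for AT1G33265, -0.32 for AT3G20720, AT2G20330 and AT5G10160, and -0.35 for AT5G11710 (adjusted p of 0.00207 to 0.0119), so their lack of a difference holds for the deposited scale only.

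Neighbouring genes that shared an organ were sought along the RefSeq gene order. Runs of at least 4 measured genes, each passing by at least 4-fold in the same direction, were found 4 times. On chromosome 1, AT1G51830, AT1G51840, AT1G51850 and AT1G51860 were higher in root by 4.17, 5.06, 2.58 and 3.71. On chromosome 5, AT5G51440, AT5G51470, AT5G51490 and AT5G51500 were higher in root by 2.3, 2.35, 2.14 and 3.85. On chromosome 4, AT4G22485, AT4G22490, AT4G22505 and AT4G22513 were higher in shoot, at -7.17, -6.45, -2.82 and -4.03. The fourth run lay on the plastid genome and held petN, psbM, psbZ and rps14, the last at -2.36. The genes of the 3 nuclear runs have no names in the annotation used, and similar sequences within a run could share probe signal, which was not tested.

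The same contrast was read in the arrays labelled aladin. The wild-type differences do not use these arrays, but the standard errors and p values of both contrasts rest on a shared estimate of the spread. The gene ALADIN itself (AT3G56900) had signals of 12.58, 12.73 and 12.75 in roots and 12.41, 12.35 and 12.41 in shoots labelled aladin, against 8.42, 8.40 and 8.36 in roots and 7.71, 7.80 and 7.71 in shoots of the wild type. Its signal was thus higher, not lower, in the arrays that carry the mutant label, and what the mutant lesion is was not given in the sources used here. In the arrays labelled aladin 10853 probe sets passed between root and shoot (62.1%), 5812 higher in root (33.2%) and 5041 higher in shoot (28.8%), of which 2064 (11.8%) in root and 1579 (9.03%) in shoot reached 2-fold. Of the 3544 that passed with at least 2-fold in the wild type, 3487 passed in the same direction there. The organ difference itself differed between the genotypes for 375 probe sets (2.15%), 250 of them with a higher value of root minus shoot in the arrays labelled aladin (1.43%) and 125 with a lower value (0.715%). This count was lower with 1 of several arrays left out, being 220 or 235 when replicate 2 or 3 of the aladin roots was left out, and 213, 235 or 211 when replicate 1, 2 or 3 of the wild-type roots was. Of the 15 genes furthest toward the shoot in wild type all 15 passed in the same direction in the arrays labelled aladin, and in 6 of them the organ difference differed between genotypes. The same was true of the 15 furthest toward the root, with 4 that differed.

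The genes whose organ difference moved most between genotypes included 1 that did not separate the wild-type organs. AT1G18830 (SEC31A), a coat protein of vesicles that leave the endoplasmic reticulum, read 4.57, 4.79 and 4.42 in wild-type roots and 4.83, 4.65 and 4.66 in wild-type shoots and did not pass (-0.12), but differed by 4.5 in the arrays labelled aladin. AT5G14650 was higher in root by 4.41 in the wild type (adjusted p = 3.20e-09) and differed by 0.11 in the arrays labelled aladin, which did not pass. AT5G42530, the furthest toward the shoot in wild type, differed by -4.75 in the arrays labelled aladin, AT4G27654, dim in both wild-type organs, by 3.29 against 1.01 in wild type (not passing without wild-type root replicate 2, adjusted p = 0.0506), AT3G22142 by -4.69 against -1.55, and AT1G52820 by 0.99 against 3.50.

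**Figure D5:**
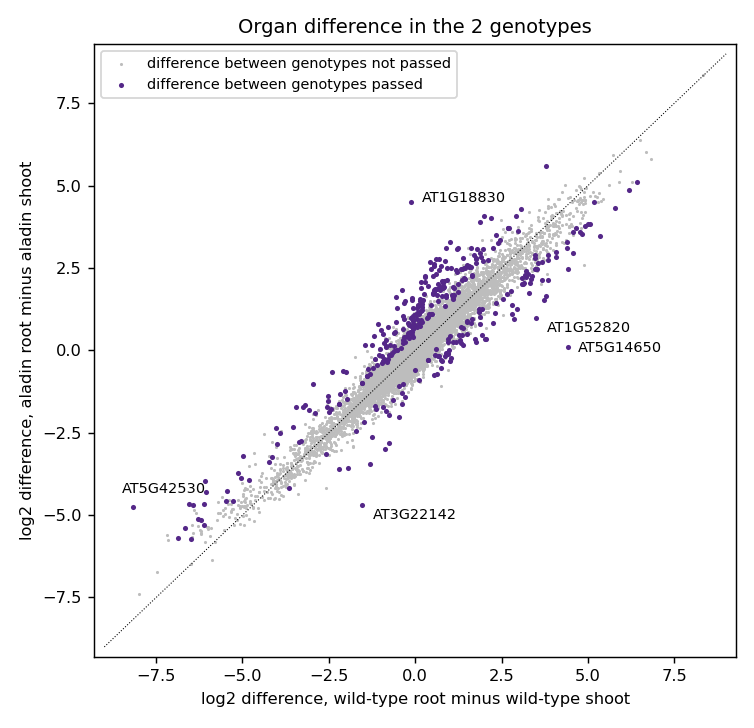
Log2 difference, root minus shoot, of each probe set in the arrays labelled aladin (vertical) against that in the wild type (horizontal), with the line of equal differences dotted. Purple points are the 375 probe sets whose organ difference differed between the genotypes, and AT1G18830 (4.5 in aladin, -0.12 in wild type) and AT5G14650 (0.11 in aladin, 4.41 in wild type) lie far from the line.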

How the data were processed

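Total RNA of separated roots and shoots was labelled with biotin and hybridised to Affymetrix Arabidopsis Gene 1.0 ST arrays. The authors deposited log2 values that had been summarised with RMA, per the submitters' processing notes; RMA corrects background, normalises between arrays by quantiles and takes log2. Array scans were not used here, so probe saturation could not be read. Gene names came from the platform annotation, and symbols were updated through RefSeq (assembly TAIR10.1), where 16574 of the 16722 probe sets linked to exactly 1 gene were found. The other 759 were linked to several, and no gene was named from them.

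A group-means model of the 12 arrays was fitted with limma 3.58.1 in R 4.3.3, with empirical Bayes moderation and Benjamini-Hochberg adjustment. It was tested on simulated data. Gene lists are described by counts and medians, with no set test. The genes named are the 15 furthest in each direction, all markers, up to 4 members of a described list with the smallest p and its largest member against the majority, the 3 highest and 3 lowest differences between genotypes, the 5 smallest differences among bright probe sets, and neighbour runs. CLE41, HEMA3, OPS, TAAC and accD were named outside this rule, after their values were seen. Members and lists were chosen with earlier results of these data known. Alternatives changed the scaling, prior, array weights, probe sets tested, threshold, replicate block and arrays included.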

Additional observations from a re-analysis of the deposited data

Results flagged for a closer look

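Among the genes named, 27 had an organ difference that itself differed between the genotypes in limma's test (adjusted p under 0.05 over all probe sets). The values below are the root minus shoot difference in the arrays labelled aladin minus that in the wild type, on the log2 scale, with 3 arrays in each of the 4 groups. The ALADIN signal was higher in the arrays labelled aladin, so these values compare the arrays as labelled. Many of these genes were named for the size or p of their wild-type difference. Such a choice favours a smaller difference in the other arrays, so the balance of directions below cannot be read as a result. No cause was tested.

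Genes higher in wild-type root had a smaller organ difference in the arrays labelled aladin in 11 cases: -4.30 for AT5G14650, -2.51 for AT1G52820, -1.87 for AT3G12900, -1.47 for AT4G00910, -1.34 for AT3G01260, -1.31 for SBT4.12, -1.23 for AT1G51840, -0.90 for SDH1-2, -0.79 for AGL42, -0.77 for AT1G33440 and -0.59 for GH3.17. The difference was larger by 0.49 for GTR2, 0.89 for PUB22 and 2.28 for AT4G27654.

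Genes higher in wild-type shoot had a smaller organ difference in the arrays labelled aladin in 11 cases: 3.41 for AT5G42530, 1.88 for COR15A, 1.75 for ALDH11A3, 1.45 for PSAE-1, 1.28 for SWEET11, 1.27 for AT2G42220, 1.2 for GH3.9, 1.18 for HPR, 1.17 for NdhL, 1.00 for SWEET1 and 0.77 for AT3G48420. It was larger for AT3G22142 (-3.15). AT1G18830, which did not pass in wild type, had 4.62.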

How the results depend on the processing

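For the 230 genes followed, the direction and the side of the threshold were as reported in 5631 of 5745 pairs of gene and alternative. 104 lost the call, 7 gained it and 3 changed direction, all under cyclic loess: AT5G10160 (-0.32), AUR1 (-0.084) and rpl2 (-0.15). With all 38408 probe sets, 11343 passed higher in root and 8968 higher in shoot, 3880 and 4112 of them by at least 2-fold, and 21321 passed in the arrays labelled aladin. More probe sets were tested there. Tested against a difference of 1 unit with limma's treat, which asks for more than a difference from 0, 1255 passed in root, 1097 in shoot, 2412 in the arrays labelled aladin and 5 between genotypes. The count between genotypes was 125 at an adjusted p of 0.01 and 594 with a trend and robust prior; the cause of the second was not tested. Leaving out each replicate gave 5134 to 5595 higher in root, 4064 to 4759 higher in shoot, 1942 to 1969 and 1590 to 1652 by at least 2-fold, 9797 to 10997 in the arrays labelled aladin, 43 to 47 lists with a median above 0, and 211 to 374 between genotypes. Same-numbered samples did not deviate together (r of -0.06 to 0.08). With 3 arrays a group this cannot show whether they came from the same plants. With a replicate block over 12 arrays, 5519 passed in root, 4691 in shoot and 312 between genotypes, and over the wild-type arrays alone 5165 and 4399. With the block on wild-type arrays AUR1, HTB2 and TRY did not pass. The number of arrays, 3 a group, limits the precision.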

Other observations

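The 20927 probe sets with no named gene were tested in a fit of all 38408 with limma, and 49.8% of them passed, against 58.8% of those with a named gene. Of the unnamed probe sets 5881 passed higher in root and 4551 higher in shoot, and by at least 2-fold 1938 and 2510 did. What these probe sets measure was not analysed here.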
